A study of Mus musculus with 6 samples.

Results

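The chemokines and chemokine receptors described here are the protein-coding entries whose symbols follow the Ccl, Cxcl, Cx3cl1 or Xcl1 and the Ccr, Cxcr, Cx3cr1 or Xcr1 pattern, without Cxcl12. This rule found 61 entries of 54532 listed genes, 43 of them ligands (37 symbols) and 18 receptors. All 61 were annotated as chemokines or chemokine receptors, and 7 ligand entries lay on scaffolds outside the assembled chromosomes. Ppbp, Pf4 and Cxcl11 are chemokines that the naming rule or the biotype left out. Chemokines are small secreted proteins that direct the movement of leukocytes, and their receptors are G protein-coupled receptors on the cells that move. In bone marrow they set which cells stay and which leave: Cxcr4 holds stem cells, neutrophils and B cells, while Cxcr2 and Ccr2 serve the exit of neutrophils and monocytes. Chemokines are grouped by the spacing of their first cysteines into CC, CXC, CX3C and XC ligands, and the receptors take the same names.

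RNA of mouse femurs was sequenced in 2 groups of 3 samples. Zin mice were dosed orally with zingerone, a phenol found in ginger, at 100 mg/kg a day over 8 weeks, and OVX mice, the ovariectomized controls, received saline. Whether Zin mice were ovariectomized too is not stated in the labels. Both groups carry the genotype label WT, and replicates 1, 2 and 3 are titled 8, 9 and 10 weeks. The labels state neither strain nor age, and none names separate animals, so the spread between libraries may in part be technical. The titled weeks differ between the 3 OVX libraries, so week and library cannot be told apart in any difference or SD below. Only the 3 OVX libraries could be tied by name to columns of values. The other 3 columns match no label and would fall to Zin only by elimination, so they were not used. The levels below are those of OVX femurs, and the effect of zingerone was not analysed here.

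The labels also name RAW264.7, a mouse macrophage-like line, and osteoclast precursors. All 8 markers of B cells, all 8 of erythroid cells and all 10 of osteoblasts on lists of such genes reached a mean of 1 FPKM (fragments per kilobase of gene, scaled to library size), which goes against a culture of macrophages alone. The libraries held 16581579 to 17017907 reads. Library 2 stood apart: its summed osteoblast markers came to 6342 FPKM, against 1875 to 2651 FPKM in libraries 1 and 3, and its chondrocyte markers to 621 FPKM, against 41.0 to 62.8 FPKM. Its muscle markers came to 148 FPKM, against 995 to 1674 FPKM in libraries 1 and 3.

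Of the 61 entries, 42 had reads in every library, 6 in some libraries only and 13 in none. A mean of at least 1 FPKM was reached by 25, comprising 15 ligands and 10 receptors, and a mean of at least 10 FPKM by 9. Every receptor had reads in at least 1 library. All 13 entries without a read were ligands: Ccl1, Ccl20, Ccl21a, Ccl21b, Ccl26, Ccl27b, Cxcl15, Cxcl17 and 5 scaffold entries. Of these, Ccl21b shares 100% and Ccl27b 98.1% of its 50-base words with other transcripts, so reads of them may have been dropped or split. The receptors summed to 273, 283 and 278 FPKM in libraries 1, 2 and 3 (278 ± 4.71, SD, n = 3), and the ligands to 209.9, 253 and 209.5 FPKM (224 ± 24.9, SD, n = 3). Over the members, the receptor sum was 1.25 ± 0.113 times the ligand sum and above it in every library (SD, n = 3). With Ppbp, Pf4 and Cxcl12 added to the ligands the direction turned, and the receptor sum was 0.159, 0.214 and 0.156 times the ligand sum in libraries 1, 2 and 3. Few genes carried these sums: the leading 3 ligands made up 81.0% ± 3.27 of the ligand sum and the leading 3 receptors 77.6% ± 0.324 of the receptor sum (SD, n = 3).

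**Figure D1:**
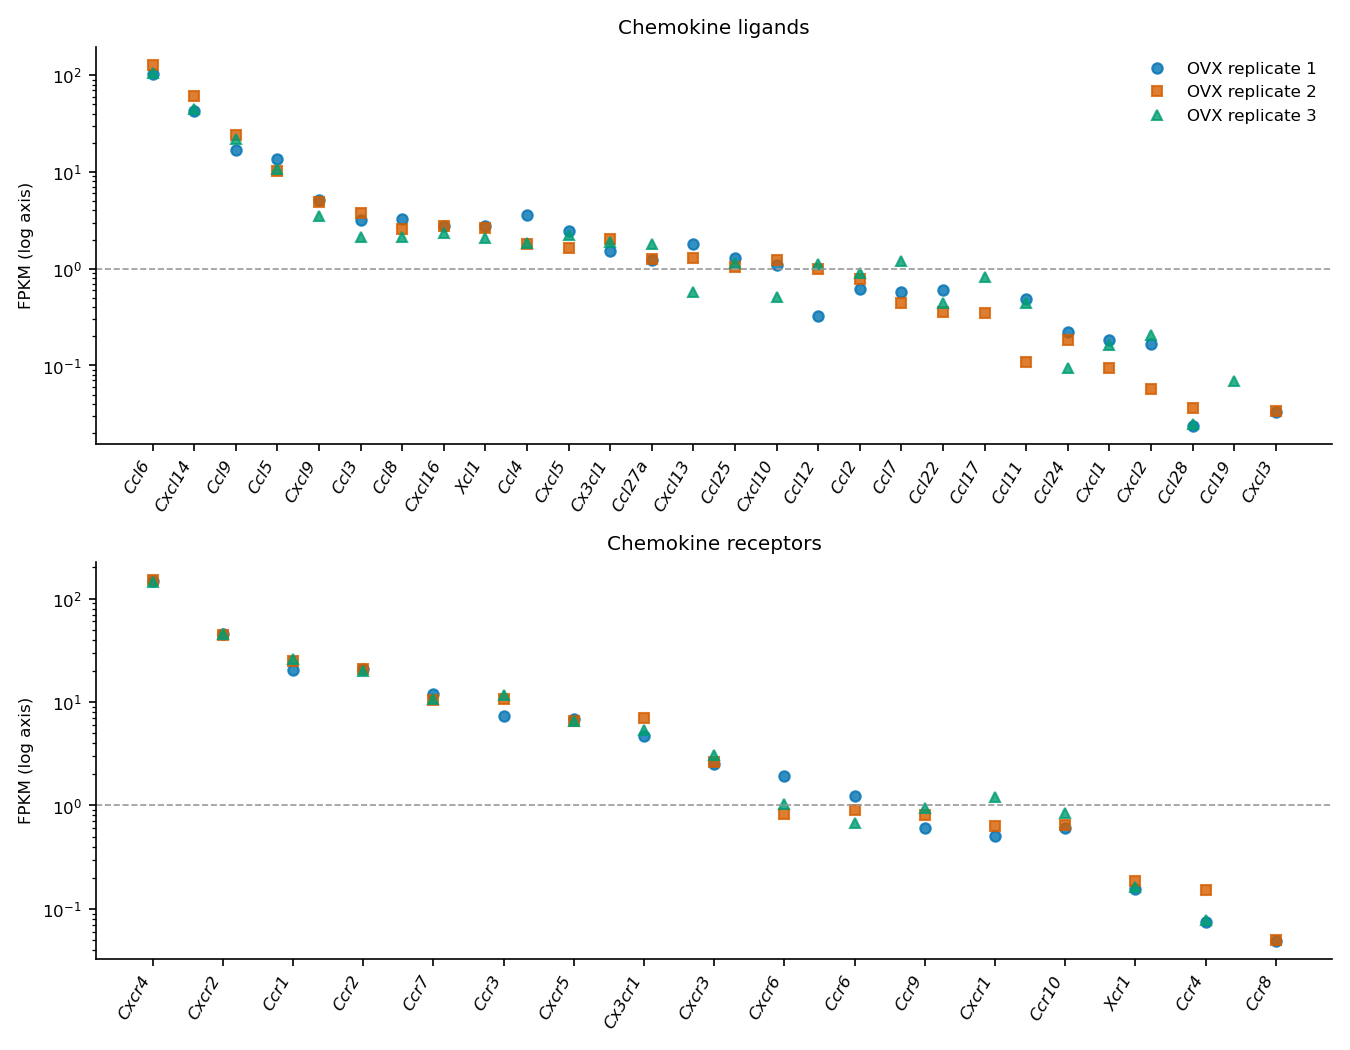
FPKM (log axis) of ligands (top) and receptors (bottom) with reads in at least 1 OVX library, scaffold entries left out, ordered by mean. Each symbol is 1 library, values of 0 are not drawn, and the dashed line marks 1 FPKM; Ccl6 and Cxcr4 stand at the top of their groups.

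The most abundant ligand was Ccl6, a CC chemokine of mouse myeloid cells that acts through Ccr1. It measured 103, 127 and 105 FPKM in libraries 1, 2 and 3 (112 ± 13.5, SD, n = 3), from 3106 to 3848 reads. Library 2 was the highest, and libraries 1 and 3 lay within a few percent of each other. Ccl6 alone made up 49.8% ± 0.619 of the ligand sum (SD, n = 3) and ranked 340 among 22046 protein-coding genes. Ccl9, its neighbour on chromosome 11 and a chemokine also made by osteoclasts, measured 16.9, 24.0 and 22.0 FPKM (20.97 ± 3.65, SD, n = 3). Library 1 was the lowest for Ccl9, and the ratio of Ccl6 to Ccl9 ran from 4.76 to 6.09.

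Cxcl14, a CXC chemokine of stromal and epithelial cells, was second. It measured 42.6, 61.0 and 44.4 FPKM (49.3 ± 10.1, SD, n = 3), and library 2 was again the highest. Ccl5, a ligand of Ccr1 made by T cells and natural killer cells, measured 13.7, 10.2 and 10.6 FPKM (11.5 ± 1.89, SD, n = 3), with library 1 above the other two. The leading 4 ligands kept the order Ccl6, Cxcl14, Ccl9, Ccl5 in every library, and no library of 1 reached the range of the next. Below Ccl5 came Cxcl9, which was separated from Ccl5. From Cxcl9 downwards every neighbour in the order overlapped the next one.

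Cxcl9, an interferon-induced ligand of Cxcr3, measured 5.16, 4.92 and 3.49 FPKM (4.52 ± 0.904, SD, n = 3), and library 3 was the lowest. Its neighbour Cxcl10, another interferon-induced ligand of Cxcr3, measured 1.08, 1.24 and 0.510 FPKM, also lowest in library 3. Art3, on the opposite strand, covers 5.91% of the exonic bases of Cxcl10. Ccl3 and Ccl4, which activated macrophages and lymphocytes release, were lower than Ccl5. Ccl3 measured 3.17, 3.80 and 2.13 FPKM (3.03 ± 0.841, SD, n = 3) and Ccl4 3.59, 1.80 and 1.83 FPKM (2.41 ± 1.03, SD, n = 3). Library 1 was the highest for Ccl4 and library 2 for Ccl3. Ccl8, listed here as a ligand of Ccr8, measured 3.28, 2.56 and 2.13 FPKM from 18 to 29 reads. These counts overlap within their exact Poisson intervals.

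The membrane-bound ligands were low and level. Cxcl16, the ligand of Cxcr6, measured 2.78, 2.73 and 2.34 FPKM, and Cx3cl1, the ligand of Cx3cr1, 1.52, 2.02 and 1.91 FPKM. Xcl1, a ligand of Xcr1 from lymphocytes, measured 2.77, 2.61 and 2.08 FPKM. Exons of Zmynd15 cover 18.3% of the exonic bases of Cxcl16 on the opposite strand, and those of Gm20743 cover 18.7% of Xcl1. No source used here states whether reads were counted by strand, so these reads cannot be assigned to 1 strand. Ccl27a, a ligand of Ccr10 known from skin, measured 1.24, 1.25 and 1.81 FPKM, and shares 45.0% of its 50-base words with other transcripts, so its level is uncertain. Cxcl13, which draws B cells into follicles through Cxcr5, measured 1.81, 1.29 and 0.579 FPKM (1.23 ± 0.619, SD, n = 3). It was lowest in library 3, with 11 reads there against 36 in library 1.

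The ligands of Cxcr2 call neutrophils out of the marrow and into inflamed tissue, and those among the members were low. Cxcl5, with 51 to 79 reads, was the only one of the 5 listed with a mean above 1 FPKM, at 2.45, 1.63 and 2.24 FPKM. Cxcl1 had 6, 3 and 5 reads (0.185, 0.0950 and 0.161 FPKM), Cxcl2 had 6, 2 and 7 reads (0.168, 0.0574 and 0.205 FPKM), and Cxcl3 had 2, 2 and 0 reads. Cxcl15 had none, which at 3 reads as the limit of a zero count allows 0.0816 to 0.0853 FPKM for this gene. These counts do not separate Cxcl1 from Cxcl2.

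Cxcl1, Cxcl2 and Cxcl3 lie close together and were near 0 beside Ccl6. Their upstream sequence is printed next to that of Ccl6 and Ccl9, neighbours that lead the CC ligands, and of Cxcr4, the leading receptor. Cxcl15, in the same group without a read, is not printed. Each line gives the 120 bases before the start site from RefSeq (GRCm38.p6), 5′ to 3′ on the gene's strand. Capitals mark matches on either strand to the promoter box TATAAA and to the core of sites for NF-κB, a factor of inflammatory gene induction. Where TATAAA matched on both strands at overlapping bases, the capitals run together.
Cxcl1: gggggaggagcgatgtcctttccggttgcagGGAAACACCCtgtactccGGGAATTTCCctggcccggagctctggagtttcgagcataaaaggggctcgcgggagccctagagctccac
Cxcl2: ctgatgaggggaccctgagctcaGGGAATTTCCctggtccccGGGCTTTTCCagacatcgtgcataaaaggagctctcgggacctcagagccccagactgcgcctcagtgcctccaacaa
Cxcl3: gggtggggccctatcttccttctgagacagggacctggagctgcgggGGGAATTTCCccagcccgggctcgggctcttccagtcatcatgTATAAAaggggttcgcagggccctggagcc
Ccl6: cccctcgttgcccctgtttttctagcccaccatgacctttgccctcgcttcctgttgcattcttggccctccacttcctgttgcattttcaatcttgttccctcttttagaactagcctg
Ccl9: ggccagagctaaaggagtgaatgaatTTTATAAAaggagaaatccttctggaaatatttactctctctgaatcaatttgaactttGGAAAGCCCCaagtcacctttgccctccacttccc
Cxcr4: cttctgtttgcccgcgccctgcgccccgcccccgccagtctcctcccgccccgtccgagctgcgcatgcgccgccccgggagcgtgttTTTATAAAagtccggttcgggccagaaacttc

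These windows lie at chr5:90891125-90891244 for Cxcl1, chr5:90903779-90903898 for Cxcl2 and chr5:90785981-90786100 for Cxcl3, all on the plus strand. Those of Ccl6 (chr11:83593088-83593207), Ccl9 (chr11:83578637-83578756) and Cxcr4 (chr1:128592300-128592419) are on the minus strand. The NF-κB letters began 89 and 71 bases before the start in Cxcl1 and 97 and 78 bases before it in Cxcl2, which gives a pair in each. Cxcl3 held 1 match and Ccl9 held 1, and the window of Ccl6 held neither motif. The word gggaatttcc occurred unchanged in Cxcl1, Cxcl2 and Cxcl3. Counted over the full windows of 250 bases before to 50 bases after the start, the NF-κB core occurred in 6 of 47 promoters of these genes (12.8%), the others being those of Ccl20 and Ccr3, and in 1.63% of 32851 promoters of all genes. TATAAA occurred in 12 of 47 (25.5%) and in 13.6% of all. The full window of Cxcl15 held 1 match to TATAAA and none to the NF-κB core. GAGGAAGT, a form of the site of the myeloid factor PU.1, occurred in 1 of 47 (2.13%) and in 3.20% of all, and TTGCNNAA, a form of the C/EBP site, in 6 of 47 (12.8%) and in 10.8% of all. The 47 windows came from 40 symbols and some overlap. The same C/EBP match was therefore counted more than once for Ccl27a and for Ccl27b. These are matches of letters, and their part in the levels was not tested. Among the genes with an NF-κB match, Ccr3 and Ccl9 averaged 9.88 and 20.97 FPKM. Cxcl1, Cxcl2 and Cxcl3 were near 0, and Ccl20 had no reads.

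The monocyte ligands of Ccr2 were also low. Ccl2 measured 0.610, 0.782 and 0.904 FPKM, Ccl7 0.578, 0.445 and 1.21 FPKM, and Ccl12 0.323, 0.995 and 1.13 FPKM from 3, 9 and 10 reads. Library 3 was the highest for each of these, on counts of 17 reads or fewer. The eosinophil ligands Ccl11 (0.481, 0.110 and 0.447 FPKM) and Ccl24 (0.223, 0.183 and 0.0934 FPKM) rested on 2 to 9 reads a library. Ccl25, a thymic and gut ligand of Ccr9, measured 1.29, 1.04 and 1.15 FPKM over a listed length of 7445 bases. Ccl22 and Ccl17, ligands of Ccr4, averaged 0.466 and 0.390 FPKM, and Ccl28, a mucosal ligand, 0.0285 FPKM.

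Among the receptors Cxcr4, the receptor of Cxcl12, was the most abundant. It measured 146, 151 and 143 FPKM in libraries 1, 2 and 3 (147 ± 3.67, SD, n = 3), which made it number 247 among protein-coding genes and 52.9% ± 1.07 of the receptor sum (SD, n = 3). The highest library was 1.05-fold above the lowest. Cxcl12, the ligand left out by the rule, measured 206, 209.9 and 216 FPKM, or 1.44 ± 0.0633 times Cxcr4 (SD, n = 3). Cxcr2, the neutrophil receptor, followed at 45.8, 44.0 and 45.2 FPKM (45.0 ± 0.901, SD, n = 3). Cxcr1, its neighbour on chromosome 1, measured 0.505, 0.637 and 1.22 FPKM from 13 to 30 reads, so Cxcr2 was 37.1 to 90.8 times higher.

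Ccr1, the receptor of Ccl6, Ccl9, Ccl3 and Ccl5, measured 20.6, 24.8 and 26.0 FPKM (23.8 ± 2.85, SD, n = 3), lowest in library 1. Ccr2, the receptor for monocyte exit, measured 20.8, 20.6 and 19.9 FPKM (20.4 ± 0.466, SD, n = 3). Their ranges overlapped, so the order of Ccr1 and Ccr2 was not separated. By reads, Ccr2 (7003 in all) stood above Cxcr2 (6950) with a listed length of 6760 bases, against 3048 for Cxcr2. Ccr7, which steers dendritic cells and T cells to lymph nodes, measured 11.97, 10.4 and 10.6 FPKM (11.01 ± 0.838, SD, n = 3). Ccr3, the eosinophil receptor, measured 7.32, 10.6 and 11.7 FPKM (9.88 ± 2.28, SD, n = 3), and library 1 was clearly the lowest.

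Cxcr5, a receptor of B cells, measured 6.83, 6.57 and 6.59 FPKM (6.66 ± 0.141, SD, n = 3) with 1.04-fold between its highest and lowest library, as Cxcr2 had when rounded. Cx3cr1, a receptor of patrolling monocytes and macrophages, measured 4.73, 6.997 and 5.36 FPKM (5.69 ± 1.17, SD, n = 3), highest in library 2. Cxcr3, a receptor of activated T cells, measured 2.51, 2.64 and 3.07 FPKM and overlapped neither Cx3cr1 above nor Cxcr6 below it. Cxcr6, a receptor of T and natural killer T cells, measured 1.92, 0.830 and 1.03 FPKM (1.26 ± 0.578, SD, n = 3), and library 1 stood above the other two. The other 8 receptors averaged under 1 FPKM. Of these, Ccr6 (0.932), Ccr9 (0.787), Cxcr1 (0.786) and Ccr10 (0.699) overlapped their neighbours in the order, while Xcr1 (0.169), Ccr4 (0.102) and Ccr8 (0.0333) lay below them without overlap. Xcr1 rested on 12 to 14 reads a library, Ccr4 on 4 to 8 and Ccr8 on 0 or 1. The exact Poisson intervals of Xcr1, Ccr4 and Ccr8 overlap one another, so these counts do not separate them. For Ccr9, exons of Gm17021 on the opposite strand cover 18.8% of its exonic bases.

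Set against the ligands listed for them, which need not be all that bind them, the receptors fell on either side of a ratio of 1. Cxcr2 was 16.1, 24.3 and 17.3 times the sum of Cxcl1, Cxcl2, Cxcl3 and Cxcl5 in libraries 1, 2 and 3 (19.3 ± 4.42, SD, n = 3). Ccr2 was 13.8, 9.28 and 6.15 times the sum of Ccl2, Ccl7 and Ccl12 (9.73 ± 3.83, SD, n = 3). Both receptors were above these summed ligands in every library. With the platelet gene Ppbp, which yields a further ligand of Cxcr2, added to the sum, the direction turned for Cxcr2, and the ratio was 0.0522, 0.0786 and 0.0495 (0.0601 ± 0.0161, SD, n = 3). Ccr3 was 10.4, 36.2 and 21.6 times its 2 listed ligands Ccl11 and Ccl24 together, with ligand counts under 10 reads a gene. Ccl5, at 13.7, 10.2 and 10.6 FPKM, was not counted there, so the direction holds for Ccl11 and Ccl24 only. Cxcr5 was 3.77, 5.09 and 11.4 times Cxcl13, and Cx3cr1 was 3.13 ± 0.325 times Cx3cl1 (SD, n = 3). Ccr7 had 347 to 409 reads while its ligands Ccl19 and Ccl21a on chromosome 4 had 1 read and none in all libraries together. Ccr6 had 26 to 49 reads and its ligand Ccl20 none. With 3 reads as the limit of a zero count, this allows 0.122 to 0.128 FPKM for Ccl20. Ccl19 and Ccl21a share 52.0% and 71.6% of their 50-base words with other transcripts, so reads of them may have been dropped or split.

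The reverse held for Ccr1, Cxcr3 and Xcr1. Ccr1 was 0.150, 0.150 and 0.187 times the sum of Ccl3, Ccl5, Ccl6 and Ccl9 (0.162 ± 0.0210, SD, n = 3). Cxcr3 was 0.533 ± 0.205 times Cxcl9 and Cxcl10 together, and Xcr1 0.0687 ± 0.0112 times Xcl1 (SD, n = 3). Each of these 3 receptors was below its ligands in all 3 libraries. The ratios compare transcripts per length in whole femurs, which do not measure secreted protein.

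**Figure D2:**
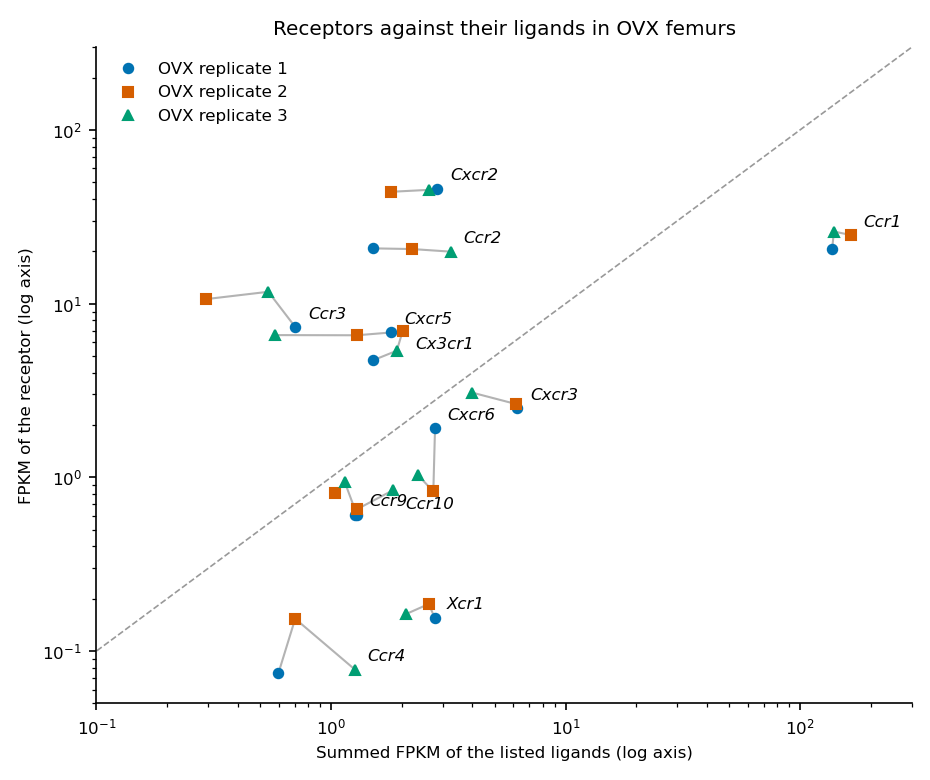
FPKM of receptors against the summed FPKM of its listed ligands (both log axes) in the 3 OVX libraries, joined by a grey line for each receptor, with equality as the dashed line. Ccr7 and Ccr8 and receptors without a read of a listed ligand are left out; Cxcr2 (without Ppbp among its ligands), Ccr2, Ccr3, Cxcr5 and Cx3cr1 lie above the line in every library, and the other receptors drawn, among them Ccr1 and Cxcr3, below it.

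Levels differed widely between groups of genes that lie together on the genome (mm10). On chromosome 11 the 5 genes from Ccl5 to Ccl4 (chr11:83525778-83664683), Ccl5, Ccl9, Ccl6, Ccl3 and Ccl4, all reached a mean of 1 FPKM and summed to 149.6 FPKM. The 6 genes Ccl2, Ccl7, Ccl11, Ccl12, Ccl8 and Ccl1 (chr11:82035571-82305690), on the same chromosome, summed to 5.33 FPKM, and only Ccl8 reached that mean. On chromosome 5 the group Cxcl5, Cxcl3, Cxcl15, Cxcl1 and Cxcl2 (chr5:90759360-90905938) summed to 2.42 FPKM, nearly all of it Cxcl5. On chromosome 9 the receptor genes Ccr1, Ccr3 and Ccr2 lie near each other and averaged 23.8, 9.88 and 20.4 FPKM, while Ccr9, Cxcr6 and Xcr1 in the same group averaged 0.787, 1.26 and 0.169 FPKM.

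**Figure D3:**
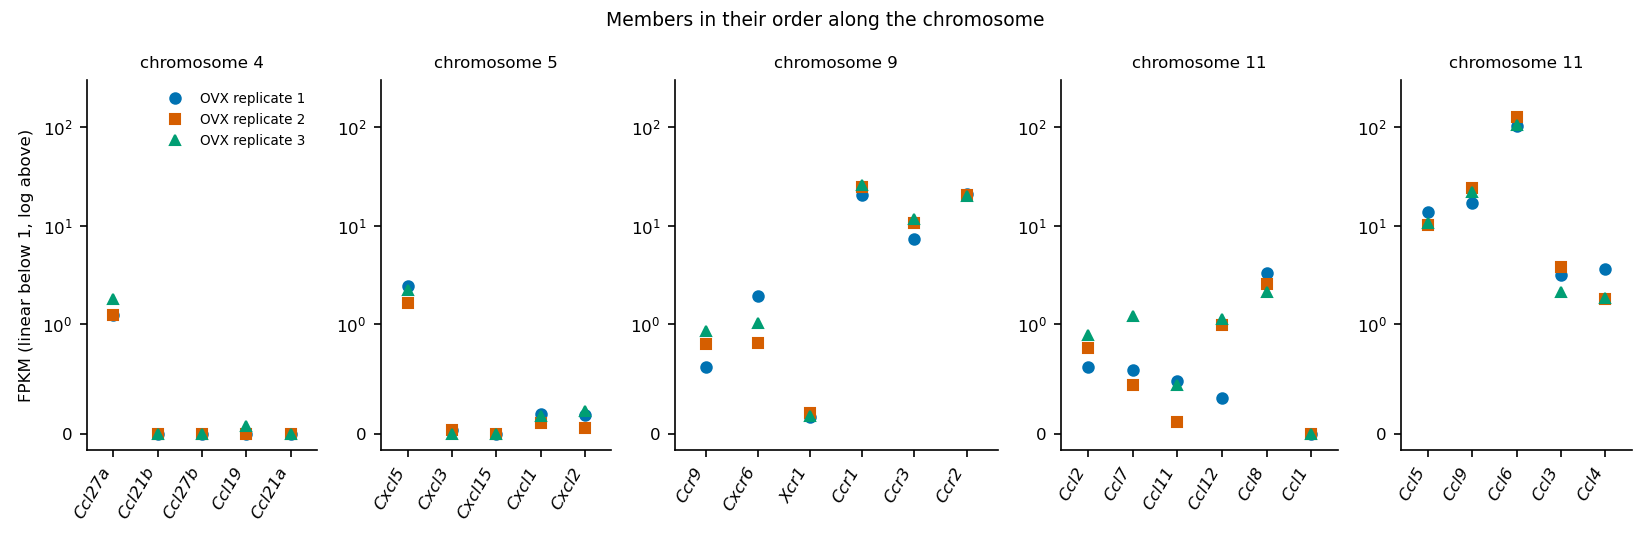
FPKM of members of 5 gene groups in their order along the chromosome in the 3 OVX libraries (vertical axis linear below 1 and log above). The group with Ccl6 sits above 1 FPKM throughout, and the groups of chromosomes 4 and 5 are near 0 except Ccl27a and Cxcl5.

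Differences between the 3 libraries were tested on the reads by a chi-square test, with Benjamini-Hochberg adjustment over the 14011 genes that averaged 1 FPKM or more. The test compares these libraries and not conditions. Of the 25 members tested, 11 (44.0%) passed an adjusted p of 0.05, and 38.7% of all tested genes did, so the share was near that of all genes. None of the 25 differed 2-fold on the log2(FPKM + 1) scale, which 5.89% of all tested genes did, although the FPKM of Cxcl13 and Cxcr6 did so without the added 1. The members' median coefficient of variation was 16.5%, and that of all tested genes was 7.49%. These medians were not matched for level or reads, and low counts alone widen the spread. A mean of at least 5 FPKM was reached by 12 of the 25 members and 8436 of the 14011 genes. The tests took 7 of 15 ligands and 4 of 10 receptors. In bulk femurs, more cells of a type and more RNA per cell cannot be told apart.

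The members that passed are listed by their highest library, a sorting that allows no more than 3 groups. By the chi-square test, those highest in library 2 were Ccl6 (adjusted p = 3.98e-18, 1.23-fold between the highest and lowest library), Cxcl14 (8.47e-25, 1.43-fold), Ccl9 (4.2e-12, 1.42-fold) and Cx3cr1 (5.12e-07, 1.48-fold). Those highest in library 1 were Ccl5 (0.00983, 1.34-fold), Ccl4 (0.0175, 1.999-fold), Cxcl9 (0.000364, 1.48-fold), Cxcl13 (0.0074, 3.13-fold) and Cxcr6 (0.000527, 2.31-fold). Those highest in library 3 were Ccr1 (8.48e-06, 1.26-fold) and Ccr3 (2.9e-11, 1.60-fold). Of the 25 tested members, 6 (24.0%) passed and were lowest in library 1, and 10.8% of all tested genes were so. For passing and highest in library 1 the numbers were 5 members (20.0%) and 15.3% of all tested genes.

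Each of the 11 failed the test when 1 of the libraries was left out. Without library 2 the chi-square test was no longer passed by Ccl6 (adjusted p = 0.949), Cxcl14 (0.756), Cx3cr1 (0.338) and Ccl4 (0.0524). Without library 1 it was not passed by Ccl9 (0.123), Ccl5 (0.803), Ccl4 (0.971), Cxcl13 (0.0822), Cxcr6 (0.583), Ccr1 (0.383) and Ccr3 (0.196). Without library 3 it was not passed by Cxcl9 (0.598) and Cxcl13 (0.310), and Cxcl5 passed (0.0497). Cxcr4 (adjusted p = 0.133), Cxcr2 (0.192), Ccr2 (0.196), Ccr7 (0.116) and Cxcr5 (0.747) did not pass the chi-square test with all libraries.

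**Figure D4:**
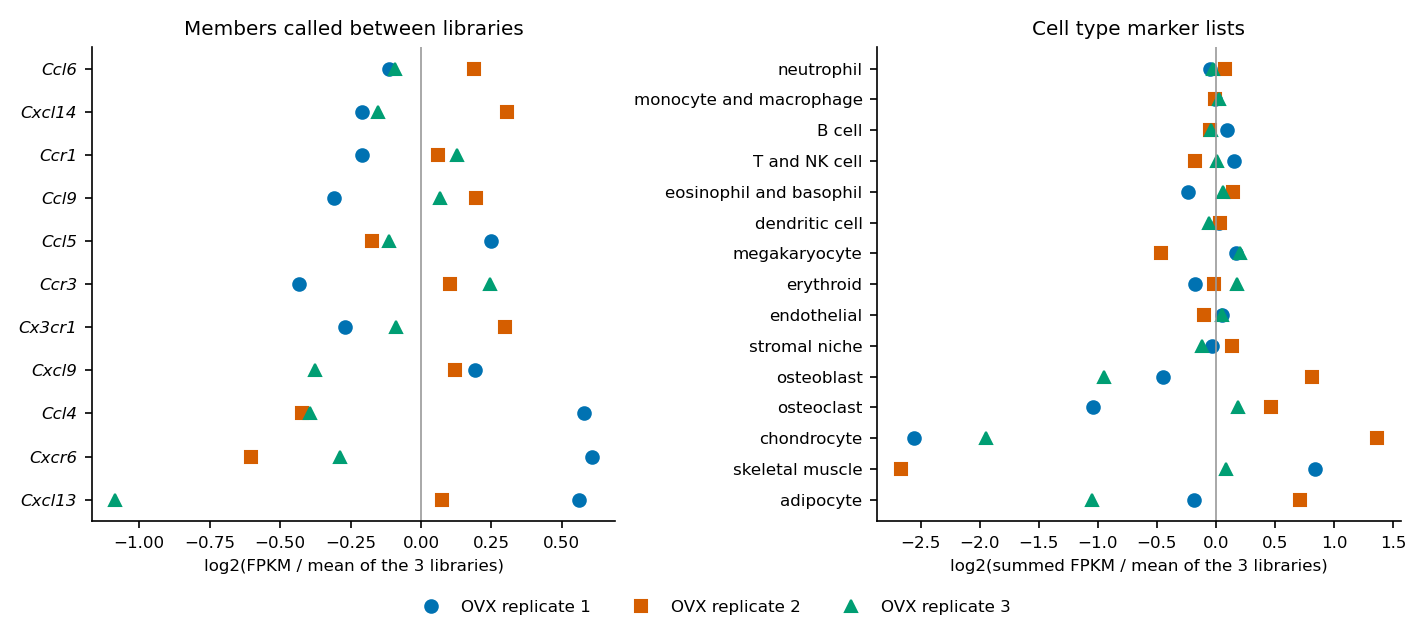
Left, log2 of the FPKM of each of the 11 members that differed between the 3 OVX libraries over its mean; right, the same for the summed FPKM of the cell type marker lists. Each symbol is 1 library; library 2 lies highest for Ccl6 and Cxcl14 and for the osteoblast and chondrocyte lists, and library 1 lowest for Ccr3 and for the eosinophil and basophil list.

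Marker lists moved with some of these members, and their part in the differences was not tested. No marker on the lists named here was at 0 in all libraries. Ccr3 was lowest in library 1, and so were 7 of 8 eosinophil and basophil markers, whose sums were 2405, 3132 and 2948 FPKM in libraries 1, 2 and 3. Ccl9 and Ccr1 were lowest in library 1, and so were 6 of 7 tested osteoclast markers, with sums of 308, 872 and 720 FPKM. Lowest in library 1 were also 7 of 8 erythroid markers (43227, 48290 and 55457 FPKM in sum) and 7 of 10 chondrocyte markers. The monocyte and macrophage markers, beside which Cx3cr1 was highest in library 2, were level in sum at 752, 753 and 771 FPKM. Their single genes were not all level, and 6 of the 10 passed the chi-square test. Highest in library 2 were 2 of the 10, Csf1r (33.6, 47.2 and 38.3 FPKM) and Vcam1 (56.9, 67.7 and 63.3 FPKM). In library 1 4 others were highest, and in library 3 a further 4, of which Cd163 measured 6.86, 12.3 and 17.3 FPKM. Ccl5, Ccl4 and Cxcr6 were highest in library 1, where the T and natural killer cell markers summed to 71.8 FPKM, against 57.1 and 64.9 FPKM in libraries 2 and 3. Only 4 of the 8 tested markers of that list were highest in library 1, and 3 were lowest there. Lowest were Ncr1 (1.13, 1.81 and 2.87 FPKM), Klrb1c (1.07, 1.22 and 1.78 FPKM) and Gzma (2.76, 2.89 and 4.45 FPKM), which mark natural killer cells. Cd4 measured 19.0, 9.60 and 9.39 FPKM, and Nkg7 41.2, 35.5 and 41.2 FPKM. Cxcl14 and Ccl6 were highest in library 2, as were 10 of 10 osteoblast, 10 of 10 chondrocyte and 7 of 7 adipocyte markers. So were 6 of 7 tested osteoclast, 6 of 10 neutrophil, 5 of 8 stromal niche and 4 of 8 eosinophil and basophil markers. Lowest in library 2 were 10 of 10 muscle and 5 of 5 tested megakaryocyte markers. Cxcr2 and Cxcr4 stood beside neutrophil marker sums of 25076, 27425 and 25526 FPKM, and Cxcr5 beside B cell marker sums of 571, 518 and 519.5 FPKM.

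The other genes of the pathway were counted in the same way. Of 24 tested genes that carry or end the receptors' signal, 16 (66.7%) passed the test, against 38.7% of all tested genes and 44.9% of those with a mean of at least 5 FPKM, at 1.04- to 1.53-fold between the highest and lowest library. The most abundant were Gnai2, the inhibitory G protein subunit to which these receptors couple (207 ± 5.37 FPKM), the GTPase Rac2 (162 ± 7.34 FPKM) and the receptor kinase Grk2 (110.1 ± 2.51 FPKM; SD, n = 3 each). Of the 24, 11 were highest in library 1, 7 in library 2 and 6 in library 3. Atypical receptors, which bind chemokines without coupling to G proteins, and related receptors were 3 of 6 past the test, against 38.7% of all tested genes. Ackr1 measured 16.6, 17.7 and 18.9 FPKM, Ccrl2 6.62, 5.74 and 6.01 FPKM, and Ackr4 3.17, 5.79 and 4.44 FPKM, the last lowest in library 1. Of 9 tested genes of the inflammatory inducers, 5 passed the test (55.6%, against 38.7% of all tested genes), among them Il1b (11.3, 11.9 and 14.2 FPKM) and Tnf (2.33, 3.48 and 2.18 FPKM). Ifng had 3 or 4 reads and Il6 10 to 15 reads a library, and Il17a had none.

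The chemokines of platelets, left out by the naming rule, outranked every member. Ppbp measured 875, 558 and 910.3 FPKM and Pf4 428, 301 and 442 FPKM, both lowest in library 2, as were 5 of 5 tested megakaryocyte markers (236, 152 and 241 FPKM in sum). Ppbp was 7.19 ± 2.43 times and Pf4 3.58 ± 1.05 times Ccl6 (SD, n = 3).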

How the data were processed

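Femur RNA sequencing came as a single FPKM table with gene lengths. The submitters' processing notes name Trimmomatic, FastQC, STAR, featureCounts and mm10, without versions; strandedness is not stated. The authors deposited FPKM that, when tested, equalled reads divided by gene length and 1 total per library: 100% of values gave whole reads within 0.01 read. Libraries 1, 2 and 3 list 17017907, 16964740 and 16581579 reads. The 3 columns of per-sample values whose names matched no label were not used, so the planned comparison of zingerone with OVX was not run.

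Genes averaging 1 FPKM or more were tested by chi-square of reads against the reads listed, with Benjamini-Hochberg adjustment. The design planned log2(FPKM + 1) tests between groups, and the pseudocount of 1 serves here only for the 2-fold count. Values per library are given for the 12 ligands and 8 receptors of highest mean, members past the test with at least a 1.5-fold range, and ligands of those receptors. Other members named were chosen after their values were seen. From each list of other genes at most the 3 most abundant were to be named. Il1b, Tnf, Il6, Ifng, Il17a, Csf1r, Vcam1, Cd163, Ncr1, Klrb1c and the overlapping genes were named after their values were seen. The members and all lists were chosen with earlier results of these data known.

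Intervals are exact Poisson at 95% and reflect counting error alone. They treat reads as independent, as does the chi-square test. Reads lacking molecular identifiers are not independent, so the intervals can be too narrow and the p-values too small. No library pair agreed within sampling noise: chi-square per gene was 12.1 to 40.9. All 61 members had the same coordinates in GENCODE M21. Upstream sequences matched 40 symbols in RefSeq. The values of 1 member, which enters the counts and sums, are not reported here. The script was checked on simulated data. Software was scipy 1.17.1, numpy 2.4.6, matplotlib 3.10.9 and pandas 2.3.3 under Python 3.11.15.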

Additional observations from a re-analysis of the deposited data

How the results depend on the processing

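The count of members past the chi-square test, 11 of 25, was 7 of 12 at a mean of at least 5 FPKM (44.9% of all tested genes), where fewer members were tested. With no filter it was 13 of 48 (22.4% of all tested genes), adding Ccr9 and Cxcl10, and with the totals behind the authors' FPKM or median-of-ratios scaling it stayed at 11 with the 11 kept. Leaving out 1 library gave 4 to 10. The count of members with a 2-fold range was 0, and 2 (Cxcl13 and Cxcr6) with a pseudocount of 0.1. It stayed at 0 with a pseudocount of 5, under the filters and scaling tried and with each library left out. With 1 library left out the ligand sum ran from 209.7 to 231.3 FPKM and the receptor sum from 275.3 to 280.0 FPKM. None of 31 named members' means moved by 1 SD in 155 alternatives, which for a mean of 3 with 1 left out is so by construction. These choices were made after seeing the data: with Ppbp among its ligands the ratio of Cxcr2 to them was 0.0601 in place of 19.3, and with Ppbp, Pf4 and Cxcl12 the ratio of receptors to ligands was 0.176 in place of 1.25. Members under 1 FPKM rest on 0 to 159 reads a library. No paired analysis was possible because only 1 group had columns tied to labels, and the other settings for the zingerone comparison were not run.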
